A study of Capra hircus with 6 samples.

Results

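The genes described here encode proteins that coat the lipid droplet and enzymes that release fatty acids from it. They are PLIN1, PLIN2, PLIN3, CIDEA, CIDEC, PNPLA2, LIPE, ABHD5, MGLL and HILPDA. They were taken by symbol from the deposited expression tables, and all 10 were found among the 16262 gene symbols used. The libraries come from goat (Capra hircus) adipose mesenchymal stem cells, stromal cells of fat tissue that can form fat cells in culture. The first group holds 3 libraries of cells labelled as overexpressing TAZ, the Hippo pathway coactivator encoded by WWTR1. The other holds 3 libraries labelled Control and of WT genotype. All 6 are labelled with adipogenic differentiation as their treatment. The labels name no promoter, vector or cytokine treatment, no day of differentiation and no separate cultures or donors for the replicates. The p-values therefore rest on library-to-library spread, which may be only technical.

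Fat cells and many other cells store triglyceride in droplets with a coat of perilipins. PLIN1 is the perilipin of the mature fat cell and holds lipolysis back until protein kinase A phosphorylates it, whereas PLIN2 and PLIN3 coat droplets in most cell types. CIDEA and CIDEC act where droplets touch and pass lipid from the smaller to the larger droplet. Triglyceride is broken down in steps: adipose triglyceride lipase (gene PNPLA2) removes the first fatty acid with the help of its coactivator ABHD5, also called CGI-58, hormone-sensitive lipase (gene LIPE) acts on the diacylglycerol, and monoacylglycerol lipase (gene MGLL) frees the last fatty acid. HILPDA is a small droplet protein, known as induced by hypoxia, that inhibits adipose triglyceride lipase.

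Of the 10 genes, ABHD5, LIPE and PLIN2 were higher and HILPDA was lower in the TAZ libraries. PNPLA2, the lipase that ABHD5 activates and HILPDA inhibits, stood at nearly the same level in both groups. PLIN3, CIDEA and CIDEC did not pass the test, and PLIN1 and MGLL were near 0 throughout. The test was limma on log2(FPKM + 1) with Benjamini-Hochberg adjustment over 10750 genes that reached 1 FPKM in at least 3 of the 6 libraries. FPKM is the fragment number scaled to gene length and library total. Of these genes 37.9% passed an adjusted p of 0.05, with 15.7% higher and 22.1% lower in the TAZ libraries. Against that background, 4 of the 8 members that were tested passed, 3 higher and 1 lower. With so few genes this share is not read as differing from the background. In 4 of the 8 the groups stood apart with no overlap, against 48.4% of all tested genes. The median log2 fold change was 0.066 over the 8 members and -0.050 over all tested genes. All 8 reached 1 FPKM in at least 2 libraries of each group. With the libraries scaled by their median ratio, 52.3% of the called genes were higher in place of 41.6%, and the same 4 members passed in the same directions.

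The libraries held 17035481, 18852822 and 18463453 fragments in TAZ replicates 1, 2 and 3, and 17483995, 16935698 and 17297033 in Control replicates 1, 2 and 3, as worked out from the steps between low values. WWTR1 stood at 84.6, 118.1 and 84.2 FPKM in the TAZ libraries against 30.2, 29.9 and 35.9 in the Control libraries. All 10 stromal markers were expressed, with COL1A1 at 4101 ± 126 FPKM in the TAZ libraries and 3674 ± 73.9 in the Control libraries (SD, n = 3 each), and PDGFRA at 184 ± 27.6 and 172 ± 29.4. Of the 12 fat cell markers, 7 stayed under 1 FPKM in every library. Of these 10 markers 3 passed as higher with TAZ and 3 as lower. PDGFRB, a growth factor receptor, was at 71.5 ± 4.44 FPKM in the TAZ libraries and 41.5 ± 3.44 in the Control libraries (adjusted p = 1.94e-05), and COL3A1 and LUM were 1.22 and 1.30 times as high. ENG, endoglin, was at 92.8 ± 5.83 and 150.01 ± 14.8 FPKM (adjusted p = 6.54e-05), and VIM was 0.818 times the Control level. THY1, the third of those lower, was at 106 ± 10.8 and 136 ± 10.3 FPKM (adjusted p = 0.011), a call lost without TAZ replicate 2 (adjusted p = 0.0552). Of the fat cell markers that were tested, LPIN1, a phosphatidate phosphatase, was higher at 5.75 ± 0.222 and 2.36 ± 0.449 FPKM (adjusted p = 1.02e-05), and CEBPA, a transcription factor of fat cell formation, was lower at 0.961 ± 0.0887 and 1.87 ± 0.0523 FPKM (adjusted p = 0.000439). PPARG, the nuclear receptor that drives fat cell formation, had 0, 8 and 6 fragments in the TAZ libraries against 3, 2 and 4 in the Control libraries. ADIPOQ, which encodes the fat cell hormone adiponectin, had 11, 15 and 9 against 7, 12 and 13. LPL, lipoprotein lipase, had 1 fragment in all, in TAZ replicate 2. These groups overlapped, as did those of the low markers LEP and PCK1. The low markers DGAT2 and CD36 were below Control in every TAZ library. DGAT2 was at 0.119 ± 0.0630 and 0.423 ± 0.103 FPKM, and CD36 at 0.0942 ± 0.0463 and 0.282 ± 0.157 FPKM. In the limma fit with no filter DGAT2 passed as lower (adjusted p = 0.0155) and CD36 did not pass (adjusted p = 0.134). The 12 fat cell markers summed to 55.2 to 62.0 FPKM in the TAZ libraries and 46.5 to 57.2 in the Control libraries. AGPAT2, at 36.5 ± 3.25 and 34.0 ± 4.77 FPKM, and ADIPOR2, at 15.2 ± 0.806 and 12.9 ± 0.726 FPKM, made up most of that sum. Neither passed (adjusted p = 0.474 and 0.0756). The part of these marker differences in the results below was not tested. The macrophage and leukocyte markers summed to 26.7 to 27.7 FPKM in the TAZ libraries and 12.9 to 15.9 in the Control libraries. Most of that sum was CD14, which some stromal cells also express, and PTPRC, the pan-leukocyte marker, was at 0 in all 6 libraries. CD14 was at 24.2 ± 0.421 and 9.58 ± 1.38 FPKM (adjusted p = 6.8e-07), whereas CD68, the only other marker of that list that was tested, was lower at 2.86 ± 0.333 and 4.53 ± 0.437 FPKM (adjusted p = 0.00185). The endothelial markers summed to 0.137 to 0.316 and 0.336 to 0.533 FPKM with KDR at 0, and the skeletal muscle markers to 0.238 to 0.283 and 0.377 to 0.483 FPKM. In bulk libraries, fewer cells that express a gene and less RNA per cell cannot be told apart.

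The levels of the members, which FPKM sets on a scale per length, spanned from PLIN3 and PLIN2 at the top to PLIN1 and MGLL at the bottom. PLIN3 averaged 57.3 FPKM in the TAZ libraries and 52.2 in the Control libraries, which over all 6 places it at the 92.0th percentile of all genes. PLIN2, CIDEC and PNPLA2 followed in that order in both groups, and in each group each of these 4 genes lay above the next with no overlap. Below them the order differed. In the TAZ libraries ABHD5 came next, apart from the next gene, and CIDEA, LIPE and HILPDA followed with overlapping values. In the Control libraries HILPDA came next, overlapping with CIDEA, which overlapped with ABHD5, and LIPE lay apart below them.

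**Figure D1:**
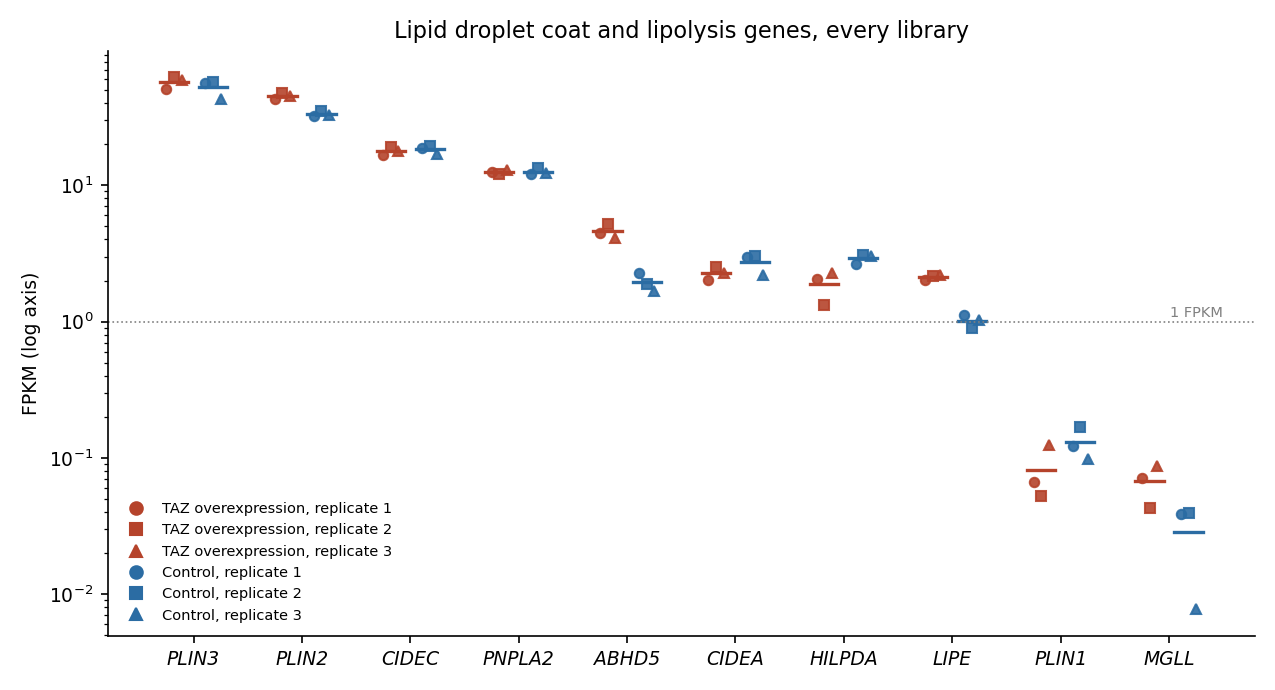
FPKM (log axis) of the 10 genes in each library, with TAZ overexpression on the left of each pair and Control on the right; markers show replicates and bars show group means. ABHD5 at 4.10 to 5.20 FPKM and LIPE at 2.0 to 2.21 FPKM in the TAZ libraries lie above all Control values, HILPDA lies below, and PLIN1 and MGLL stay under 1 FPKM.

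Among the coat proteins, PLIN2 rose. It was at 42.7, 47.7 and 44.9 FPKM in TAZ replicates 1, 2 and 3 and at 32.1, 34.8 and 32.7 FPKM in Control replicates 1, 2 and 3. Every TAZ library lay above every Control library, and the ratio of the means was 1.36 (log2 fold change 0.43, SE 0.083, adjusted p = 0.00134). PLIN2 is the perilipin whose protein is kept from breakdown by being on a droplet, and it is commonly read as a gauge of stored lipid. PLIN3, a perilipin that also occurs free in the cytosol, had 50.7, 61.9 and 59.2 FPKM in the TAZ libraries against 56.2, 57.3 and 43.2 FPKM in the Control libraries. These groups overlapped, with Control replicate 3 the lowest of the 6, and the gene did not pass (adjusted p = 0.377). The interval of its fold change on the log2(FPKM + 1) scale ran from 0.925 to 1.31. The handling of reads that fit more than 1 perilipin gene is not stated.

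The ratio of PLIN2 to PLIN3 within a library was 0.843, 0.771 and 0.758 in the TAZ libraries and 0.571, 0.608 and 0.757 in the Control libraries. The lowest TAZ value and the highest Control value were thus nearly equal, and that Control library, replicate 3, had the lowest PLIN3. PLIN2 made up 43.1% to 45.7% of the summed FPKM of PLIN1 to PLIN4 in the TAZ libraries and 36.3% to 43.0% in the Control libraries. PLIN1 made up 0.0483% to 0.118% and 0.130% to 0.182% of that sum. PLIN4, a perilipin of mature fat cells and muscle, had 1 fragment in all, in Control replicate 2.

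The droplet fusion genes did not pass the test. CIDEC, which is best known from the large single droplet of white fat cells, had 16.6, 19.1 and 17.8 FPKM in the TAZ libraries and 18.8, 19.3 and 16.8 FPKM in the Control libraries (adjusted p = 0.789). The groups overlapped throughout, and the interval of the fold change ran from 0.848 to 1.12. CIDEC was thus well expressed, on 1585 fragments in the TAZ libraries and 1545 in the Control libraries, in cells where PPARG and ADIPOQ were near 0. A long noncoding RNA gene overlaps CIDEC in RefSeq (assembly ARS1.2). Whether counting used strand is not stated, so reads of both may be counted. CIDEA, known from brown and beige fat cells, was lower in level at 2.03, 2.50 and 2.26 FPKM in the TAZ libraries and 2.97, 3.01 and 2.18 FPKM in the Control libraries. It overlapped between the groups through Control replicate 3 and did not pass (log2 fold change -0.19, SE 0.11, adjusted p = 0.22). Without Control replicate 3 it fell past the threshold (log2 fold change -0.29, adjusted p = 0.0474).

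Of the lipases, LIPE rose while PNPLA2 did not pass. PNPLA2 had 12.4, 12.1 and 12.96 FPKM in the TAZ libraries and 12.1, 13.3 and 12.2 FPKM in the Control libraries, with adjusted p = 0.978. Its fold change had an interval from 0.874 to 1.14. LIPE had 2.0, 2.16 and 2.21 FPKM in the TAZ libraries and 1.12, 0.893 and 1.03 FPKM in the Control libraries. Every TAZ library was above every Control library, and the ratio of the means was 2.10 (log2 fold change 0.64, SE 0.095, adjusted p = 0.000168). The value added to each FPKM pulls this log2 fold change down, and it was 1.0 with 0.1 FPKM added and 1.07 in a fit of the recovered fragments. LIPE rested on 375 fragments in the TAZ libraries and 170 in the Control libraries.

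MGLL and PLIN1 were too low for the test. MGLL had 9, 6 and 12 fragments in the TAZ libraries against 5, 5 and 1 in the Control libraries, or 0.0671 ± 0.0226 against 0.0287 ± 0.0181 FPKM (SD, n = 3 each). The groups did not overlap, and the summed fragments per library total gave a ratio of 2.34 with an exact Poisson interval of 1.12 to 5.22 that covers counting error only. With no filter on low genes MGLL did not pass (log2 fold change 0.053, adjusted p = 0.122). PLIN1 had 8, 7 and 16 fragments against 15, 20 and 12, or 0.0811 ± 0.0374 against 0.130 ± 0.0353 FPKM. Its groups overlapped, its ratio was 0.628 with an interval of 0.385 to 1.01, and with no filter its adjusted p was 0.23. The added 1 FPKM compresses the log2 fold changes of genes this low, and with 0.1 FPKM added they were 0.38 for MGLL and -0.35 for PLIN1, with adjusted p = 0.128 and 0.227. A difference in PLIN1 was not detected, and its interval is wide at this depth.

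**Figure D2:**
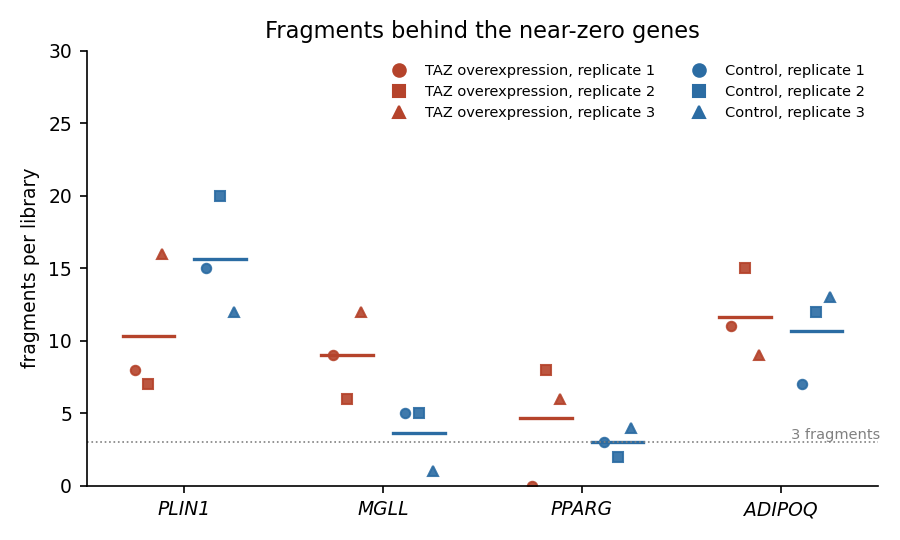
Fragments per library (linear axis) for PLIN1 and MGLL beside the fat cell markers PPARG and ADIPOQ, TAZ overexpression left and Control right; bars show group means and the dotted line marks 3 fragments, the number that a count of 0 allows. No library holds more than 20 fragments of any of these 4 genes, and only MGLL has no overlap between the groups.

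The coactivator ABHD5 had the largest change of the 8 tested members. It stood at 4.49, 5.20 and 4.10 FPKM in the TAZ libraries and at 2.27, 1.9 and 1.69 FPKM in the Control libraries. The groups lay well apart, and the ratio of the means was 2.35 (log2 fold change 0.92, SE 0.11, adjusted p = 2.64e-05). That change was at the 96.0th percentile of all tested genes, with LIPE at the 93.5th and PLIN2 at the 89.8th.

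The inhibitor HILPDA fell. It had 2.06, 1.33 and 2.26 FPKM in the TAZ libraries and 2.64, 3.07 and 3.05 FPKM in the Control libraries, on 138 and 204.5 fragments (a pair can be counted as 0.5). All TAZ libraries lay below all Control libraries, with replicate 2 the lowest, and the ratio of the means was 0.645 (log2 fold change -0.46, SE 0.13, adjusted p = 0.0121). With 0.1 FPKM added the log2 fold change of HILPDA was -0.64. The call with 1 FPKM added was lost without TAZ replicate 2 (log2 fold change -0.31, adjusted p = 0.0574) and with no filter on low genes (adjusted p = 0.0717). TAZ replicate 2 also had the highest WWTR1, ABHD5, PLIN2 and PLIN3 of the 6, whereas LIPE was highest in TAZ replicate 3. Whether these values are related was not tested.

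**Figure D3:**
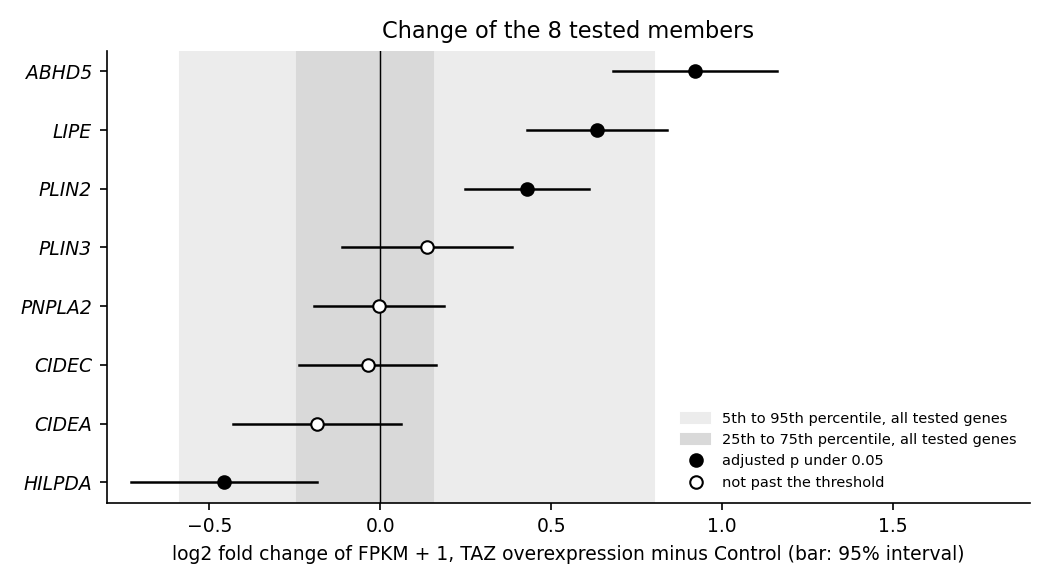
Log2 fold change of FPKM + 1 (TAZ overexpression minus Control) with its 95% interval for the 8 members tested; filled points passed an adjusted p of 0.05, and grey bands show the middle of the distribution over all tested genes. ABHD5, at 0.92, lies beyond the 95th percentile of 0.80, LIPE, PLIN2 and HILPDA lie outside the band from the 25th to the 75th percentile, and the other 4 lie inside it.

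The level of PNPLA2 relative to its partners differed between the groups. There were 2.77, 2.32 and 3.16 units of PNPLA2 per unit of ABHD5 in the TAZ libraries, against 5.33, 6.995 and 7.22 in the Control libraries. The ratio of PNPLA2 to HILPDA was 6.03, 9.08 and 5.74 in the TAZ libraries and 4.58, 4.33 and 3.999 in the Control libraries. The ratio of LIPE to PNPLA2 was 0.161, 0.179 and 0.171 in the TAZ libraries and 0.0928, 0.0671 and 0.0841 in the Control libraries. The ratio to G0S2, another small inhibitor of the lipase, went the opposite way, at 49.9, 41.8 and 39.5 in the TAZ libraries and 349, 372 and 174 in the Control libraries, where G0S2 rests on at most 2 counting steps, of 1 or 0.5 fragments each, per library. None of these 4 ratios overlapped between the groups. PNPLA2 stood at nearly the same level in both groups, and ABHD5, HILPDA, LIPE and G0S2 each did not overlap on their own. The lack of overlap in the ratios therefore restates the changes of those genes. The ratios are descriptions of mRNA levels per length, and 3 libraries against 3 could not reach an exact permutation p under 0.10.

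**Figure D4:**
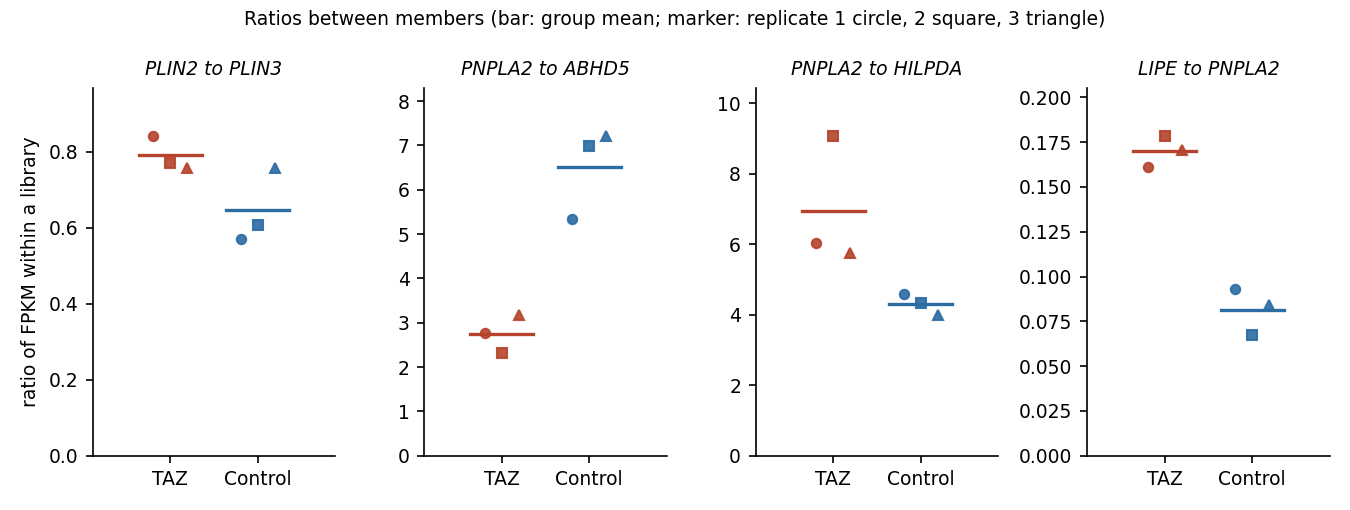
Ratios of FPKM between members within each library (linear axes from 0), TAZ overexpression left and Control right, with bars for group means. The ratio of PNPLA2 to ABHD5 is 2.32 to 3.16 in the TAZ libraries against 5.33 to 7.22 in the Control libraries, while the groups almost touch for PLIN2 to PLIN3.

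Genes that control lipolysis, listed together with other lipid hydrolases, moved in both directions. Of 45 measured genes of this list outside the 10, 33 were tested, 10 were higher with TAZ and 7 lower. The median log2 fold change was -0.0039 over the 33. The hydrolases LIPA and DAGLB are among those higher, and ABHD12 is among those lower. Called genes made up 51.5% of the 33, against 37.9% of all tested genes. ADRB1, a receptor through which catecholamines start lipolysis, was below the filter at 0.341 ± 0.0371 FPKM in the TAZ libraries and 0.394 ± 0.189 in the Control libraries (SD, n = 3 each). ADCY6, an adenylyl cyclase that makes cyclic AMP, reached 1.49 times the Control level (adjusted p = 0.00175). The phosphodiesterase genes PDE4B and PDE4D, whose products break cyclic AMP down, were 2.22 and 1.81 times as high (adjusted p = 5.88e-06 and 0.00044). PDE3B, the phosphodiesterase through which insulin restrains lipolysis in fat cells, did not pass at 1.44 ± 0.205 and 1.58 ± 0.262 FPKM (adjusted p = 0.602).

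PRKACA, a catalytic subunit of protein kinase A, fell to 38.9, 37.0 and 41.9 FPKM in the TAZ libraries, against 52.3, 55.8 and 52.3 FPKM in the Control libraries (log2 fold change -0.44, SE 0.083, adjusted p = 0.00116). GNAI1, an inhibitory G protein subunit, fell to 0.579 times the Control level (adjusted p = 0.00581, and 0.0567 with no filter on low genes). On the insulin side, INSR, the insulin receptor, was 1.59 times as high (adjusted p = 0.00781, and 0.0638 with no filter). IRS1, its docking protein, and AKT2, a kinase downstream, fell to 0.684 and 0.75 times the Control level (adjusted p = 0.000871 and 0.00437). The calls of PRKG1, FOXO1 and DAGLB among those higher, and of PRKAR1A and SIRT1 among those lower, were each lost when at least 1 of the 6 libraries was left out.

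Other enzymes that release fatty acids, counted in the same list, were expressed. LIPA, the lysosomal acid lipase, rose to 119.5, 98.3 and 114.7 FPKM in the TAZ libraries, against 55.3, 55.4 and 61.7 FPKM in the Control libraries (log2 fold change 0.93, SE 0.093, adjusted p = 4.95e-06). ABHD12 and ABHD6, serine hydrolases that also act on monoacylglycerol, were far above MGLL in level. ABHD12 was lower at 36.4 ± 2.99 FPKM in the TAZ libraries and 47.6 ± 5.39 in the Control libraries (adjusted p = 0.00987). ABHD6 did not pass at 2.83 ± 0.246 and 2.34 ± 0.0554 FPKM (adjusted p = 0.129). TXNIP, a glucose-induced protein that binds thioredoxin and is not itself a lipase, had the lowest adjusted p of the list at 34.2 ± 0.747 and 12.1 ± 2.18 FPKM (adjusted p = 3.99e-07).

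G0S2, the other small protein known to inhibit adipose triglyceride lipase, was near 0. It had 7, 9 and 10 counting steps in the TAZ libraries against 1, 1 and 2 in the Control libraries, where a step stands for 1 fragment or for 0.5. The groups did not overlap, and the ratio per library total was 6.18 in the TAZ libraries over the Control libraries. Its exact Poisson interval was 2.15 to 24.4 if a step is 1 fragment and 1.40 to 56.5 if it is 0.5, for counting error only. With no filter on low genes G0S2 passed (log2 fold change 0.30, SE 0.027, adjusted p = 0.00126), and with 0.1 FPKM added the log2 fold change was 1.41. At 0.249 to 0.328 FPKM in the TAZ libraries it stayed below HILPDA in every library.

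Among genes for 27 further measured proteins of the droplet surface or of droplet formation, 22 were tested, 4 were higher with TAZ and 3 lower. The share called was 31.8% of the 22, against 37.9% of all tested genes, and the median log2 fold change was -0.013. ACSL3 and ACSL4, acyl-CoA synthetases that activate fatty acids, had the largest rises, with ACSL4 at 55.3 ± 3.80 FPKM in the TAZ libraries and 21.7 ± 2.93 in the Control libraries (log2 fold change 1.31, SE 0.10, adjusted p = 4.09e-07). ACSL3, which sits on nascent droplets, was 2.19 times as high (adjusted p = 5.67e-05). VPS13C, a lipid transfer protein, and TMEM159, which encodes the seipin partner promethin, were 1.59 and 1.36 times as high (adjusted p = 0.00497 and 0.00476). The call of VPS13C was lost with no filter (adjusted p = 0.0538). BSCL2, which encodes seipin, the protein at the site of droplet formation, fell to 18.3, 18.4 and 19.8 FPKM in the TAZ libraries, against 24.6, 27.4 and 24.0 FPKM in the Control libraries (log2 fold change -0.41, SE 0.088, adjusted p = 0.00291). FITM2, which acts in droplet budding from the endoplasmic reticulum, fell to 0.581 times the Control level (adjusted p = 0.000241), and LPCAT1, an enzyme of phosphatidylcholine remodelling found on droplets, to 0.598 times (adjusted p = 4.4e-05). CIDEB, the third CIDE gene, was under 1 FPKM in every library, at 0.132 ± 0.00691 in the TAZ libraries and 0.587 ± 0.279 in the Control libraries (SD, n = 3 each). Its groups did not overlap, and with no filter on low genes it passed as lower (log2 fold change -0.47, adjusted p = 0.0386). DGAT2, also in this list and under 1 FPKM in every library, passed as lower with no filter too (log2 fold change -0.35, adjusted p = 0.0155). PLIN5 was not analysed here.

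**Figure D5:**
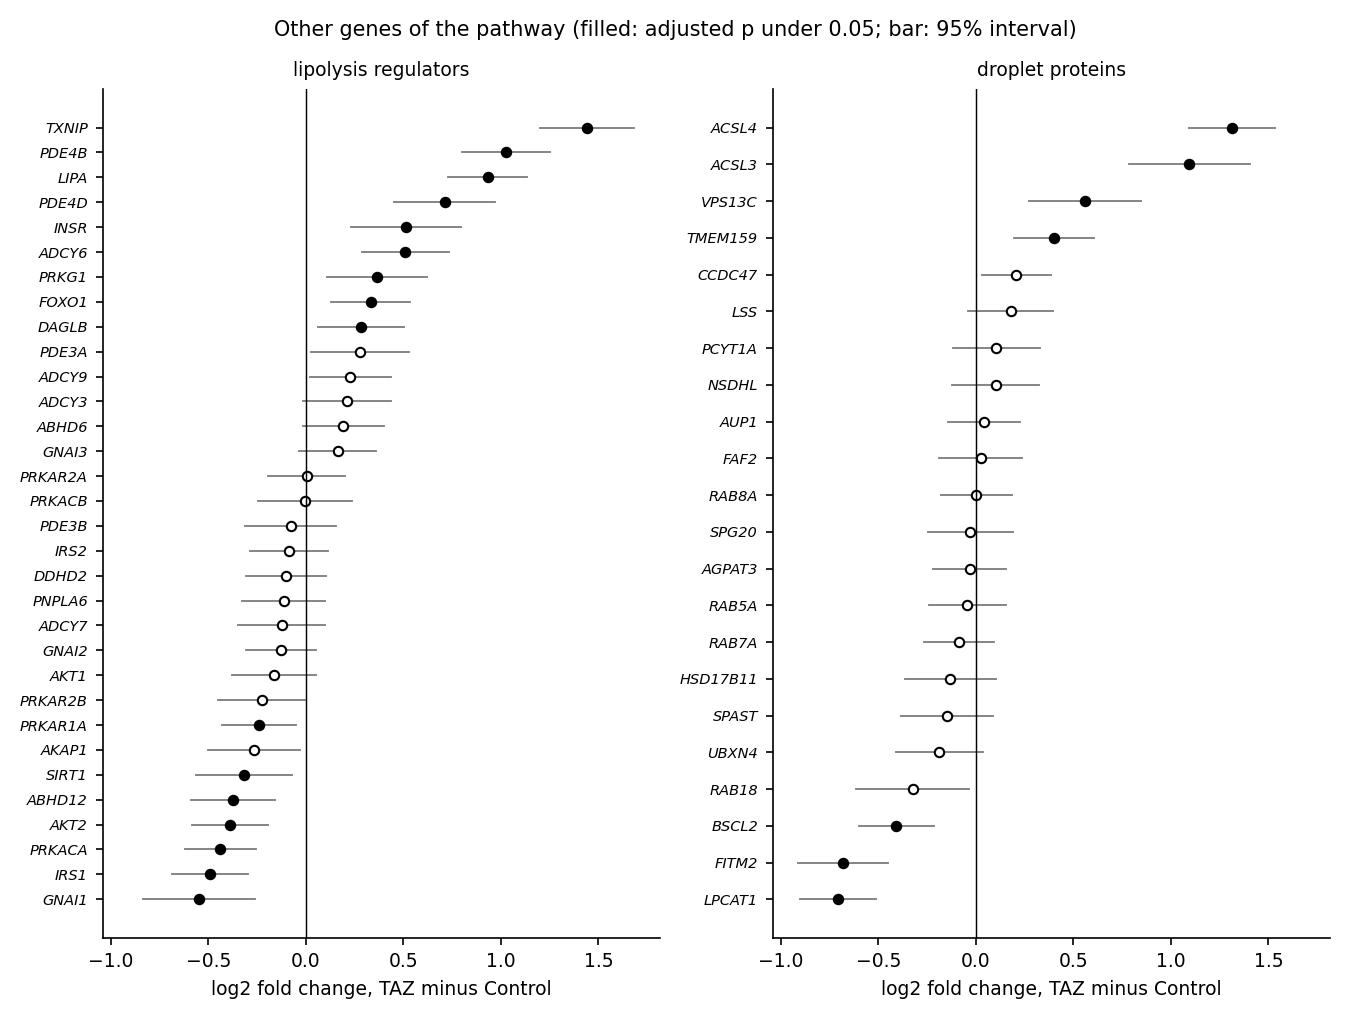
Log2 fold change (TAZ overexpression minus Control) with 95% intervals for tested genes that control lipolysis, with other lipid hydrolases (left), and the 22 other tested droplet proteins (right). Filled points passed an adjusted p of 0.05. Both lists spread to either side of 0, with TXNIP, PDE4B, LIPA, ACSL4 and ACSL3 at the upper end and GNAI1, IRS1, LPCAT1 and FITM2 at the lower.

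The genes most like ABHD5 and HILPDA across the 6 libraries were found by the root mean square distance between log2(FPKM + 1) profiles, each centred on its own mean. Near ABHD5 were E2F2, an E2F transcription factor, at a distance of 0.054 and ECE1, endothelin converting enzyme, at 0.064. Both were higher in the TAZ libraries, with E2F2 at 1.51 ± 0.186 FPKM against 0.360 ± 0.116 in the Control libraries and ECE1 at 51.9 ± 6.27 against 28.6 ± 3.76 (SD, n = 3 each; limma adjusted p = 1.96e-05 and 5.59e-05), and both were highest in TAZ replicate 2, as ABHD5 was. E2F2 passed the filter through the TAZ libraries only, as it was under 1 FPKM in every Control library. With no filter its adjusted p was 0.00154. For HILPDA the nearest were AP3S1, an adaptor complex subunit, at 0.062, AUTS2 at 0.070 and SNX16, a sorting nexin, at 0.073. All 3 passed as lower (adjusted p = 0.00115, 0.0111 and 0.0313). All 3 were lowest in TAZ replicate 2, as HILPDA was. AUTS2 and SNX16 lost the call without that library (adjusted p = 0.0569 and 0.147) and with no filter on low genes (adjusted p = 0.0629 and 0.118). The call of SNX16 was also lost without Control replicate 2 or 3 (adjusted p = 0.0783 and 0.0748) and under median-ratio scaling (adjusted p = 0.0517). With 6 libraries in 2 groups, much of such likeness is the group difference itself. The genes were also chosen by likeness over these same libraries. Their calls and their shared extreme in TAZ replicate 2 therefore largely follow from that choice and are no separate evidence.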

How the data were processed

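Per the file headers, the values that the authors deposited are FPKM, with 1 table per group. The submitters' processing notes name fastp, HISAT2 and HTSeq. Versions, genome build, annotation and strand setting are not stated, and coordinates are therefore left out. Of 16285 rows, 23 with a date as symbol were left out. All 16262 symbols occur in the RefSeq table (assembly ARS1.2), used for names and neighbours only. Fragment numbers were recovered from the steps of the FPKM values (within 0.003 of a whole step). For genes of 30 steps or more, 99.1% stepped in 0.5 fragments. Chi-square per degree of freedom within groups was 9.01 to 14.0, so no libraries lay within sampling noise. Samples were grouped by title. Values were taken as log2(FPKM + 1) and fitted with limma 3.58.1 (R 4.3.3, mean-variance trend, two-sided), checked on simulated data. Members, lists and rules were chosen with earlier results of these data known. The rule for named genes took the 10 members, WWTR1, fixed markers, from each list the 3 genes of lowest adjusted p, the leading one in the less frequent direction, droplet and lipolysis genes whose role is described, and the 3 genes most like ABHD5 and HILPDA. No reference sequences were at hand, so planned motif and protein comparisons were not made. A gene that the rule would name is not reported here, though counts over its list include it.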

Additional observations from a re-analysis of the deposited data

How the results depend on the processing

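ABHD5 and LIPE kept direction and call under the 16 alternatives that tested them, and PLIN2 under 17. Alternatives were pseudocounts of 0.1 and 0.5 FPKM, 2 filters, 2 scalings, 2 priors, the replicate block and leaving out each library; a voom fit of recovered fragments and no filter with 0.1 FPKM added were chosen after seeing the data. With no filter, alone or with 0.1 FPKM added, 0 members, 5 other droplet proteins and 4 lipolysis regulators were lower. With a mean of at least 5 FPKM, 4 members were tested, 1 was higher and 0 were lower, and 5 lipolysis regulators were higher. Leaving out 1 library left 0 to 2 members lower, 0 without TAZ replicate 2 and 2 without Control replicate 3. Near 0, log2 fold changes turned sign: CIDEC was at 0.013 and PNPLA2 at 0.045 under median-ratio scaling. Leaving out 1 library gave CIDEC -0.093 to 0.013 (positive without TAZ replicate 1) and PNPLA2 -0.029 to 0.037 (positive without TAZ replicate 1 or 2 or Control replicate 2, at 0.00016, 0.018 and 0.037). The cause was not tested. Same-numbered replicates did not deviate together (correlations -0.44, -0.11 and -0.40). Deviations from the mean of only 3 libraries per group force some correlations below 0, so this check cannot exclude a pairing by number. No library correlated best with its own number; the best matches lay across numbers, TAZ replicate 1 with Control replicate 3 (0.69), 2 with 1 (0.53) and 3 with 2 (0.55), and no label pairs these, so none was fitted. With the replicate block 3512 genes passed in place of 4074, and the same 4 members. Fewer than 21 fragments per library limit PLIN1 and MGLL.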

Other observations

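HILPDA is named for its induction by hypoxia, and other hypoxia-inducible genes moved the other way in these libraries. Of 15 such genes, listed with earlier results of these data known, 14 were tested, 11 were higher with TAZ and 2 lower. Among all tested genes 15.7% were higher and 22.1% lower. The median log2 fold change was 1.03 over the 14 and -0.050 over all tested genes. ANKRD37, counted among the 11, passed the filter through the TAZ libraries only, as it was under 1 FPKM in every Control library. Its level was 1.81 ± 0.394 FPKM in the TAZ libraries and 0.548 ± 0.116 in the Control libraries (SD, n = 3 each). With no filter on low genes it also passed as higher. SLC2A3, a glucose transporter, was at 42.2 ± 5.26 FPKM in the TAZ libraries and 5.44 ± 0.866 in the Control libraries (SD, n = 3 each). CA12, a carbonic anhydrase, was at 72.6 ± 8.85 and 12.1 ± 1.58 FPKM, and EGLN3, a prolyl hydroxylase that acts on hypoxia-inducible factors, at 9.07 ± 1.18 and 1.23 ± 0.171 FPKM. PDK1, pyruvate dehydrogenase kinase 1, and BHLHE40, a transcriptional repressor, were lower like HILPDA, at 0.66 and 0.679 times the Control level (limma adjusted p = 0.00402 and 0.00457); the call of BHLHE40 was lost with no filter (adjusted p = 0.0565).

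PLIN2 is a known target of the PPAR nuclear receptors. Of 13 measured PPAR and RXR genes and other PPAR targets, 10 were tested, 1 was higher and 3 were lower. The share called, 40.0% of the 10, was near the 37.9% of all tested genes and is not a result about the list; single genes follow as values. ANGPTL4, an inhibitor of lipoprotein lipase, was higher, with 8.14 ± 0.453 FPKM in the TAZ libraries and 4.23 ± 0.634 in the Control libraries (limma adjusted p = 5.8e-05). CPT1A, CPT2 and SLC25A20, genes of fatty acid entry into mitochondria, were lower at 0.653, 0.675 and 0.674 times the Control level. PPARD did not pass at 7.82 ± 0.160 and 8.96 ± 0.708 FPKM (adjusted p = 0.163).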
